A study of Mus musculus with 25 samples.

Results

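The expression of 34 genes of the cell division cycle was followed in RNA from 25 mouse hearts. The genes were taken by symbol from a list of known cell cycle genes: 6 act at the start of a cycle (G1 cyclins, a kinase and E2F1), 10 in replication licensing and at the fork, 3 in nucleotide supply, 7 in mitotic entry, and 8 in mitosis and cytokinesis. All 34 were found among the 56941 genes of the count table, and all 34 were among the 17682 genes that passed the filter on low counts. The hearts came from wild-type (WT) mice and from mice labelled MCT1KO, and were labelled no pump, saline or Ang/PE, the last being neurohormonal agonists that cause myocardial hypertrophy. The series is about lactate metabolism in hypertrophy, and MCT1 is the lactate and pyruvate transporter encoded by Slc16a1. The groups held 4 WT and 3 MCT1KO hearts with no pump, 6 WT and 4 MCT1KO hearts with saline, and 3 WT and 5 MCT1KO hearts with Ang/PE. The labels give each heart's genotype and treatment, but no dose, infusion time, age, sex, strain, Cre driver or deleted region. P-values therefore measure the spread among these hearts, with no further source of replication stated.

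A dividing cell passes through a gap phase (G1), DNA synthesis (S phase), a further gap (G2) and mitosis (M). In G1, D-type cyclins activate kinases that release E2F factors from the retinoblastoma protein. E2F factors then switch on cyclin E and the genes of DNA replication, while a later wave of genes for mitosis is held down in resting cells by the DREAM complex and switched on with B-MYB and FOXM1. Most cardiomyocytes of the adult mouse heart have left the cycle, so that cells in division are mainly found among its endothelial, mesenchymal and immune cells. In RNA from heart tissue, fewer cells of a dividing type and less RNA per cell cannot be told apart.

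Promoter sequences of these genes carry the short words that separate the S phase from the mitotic wave, and they are shown for genes on which the results below turn. RefSeq promoter windows (assembly GRCm38.p6), from 250 bases before to 50 after a start site, were found for 27 of the 34 genes, as 28 windows, Mcm7 having 2. There was no match for Ccnd1, Ccnd2, Ccne2, Mcm4, Ccna2, Foxm1 and Aurkb. Below are the 250 bases before the start site, 5′ to 3′ on the gene's own strand, with 3 kinds of word in capitals on either strand: the cell cycle homology region (CHR), searched as TTTGAA and with C in the middle as TTCGAA, the CCAAT box, and E2F words, searched as TTTGGCGC, TTTCCCGC, TTTGGCGG and TTTCGCGC. Cdk1 and Top2a show the mitotic type, Mcm6 the replication type, and Cdk2 and Pcna are shown because their RNA passed a test of treatment. All 5 lie on the minus strand, at chr10:69352913-69353162 (Cdk1), chr11:99024190-99024439 (Top2a), chr1:128359706-128359955 (Mcm6), chr10:128705052-128705301 (Cdk2) and chr2:132253181-132253430 (Pcna).
Cdk1: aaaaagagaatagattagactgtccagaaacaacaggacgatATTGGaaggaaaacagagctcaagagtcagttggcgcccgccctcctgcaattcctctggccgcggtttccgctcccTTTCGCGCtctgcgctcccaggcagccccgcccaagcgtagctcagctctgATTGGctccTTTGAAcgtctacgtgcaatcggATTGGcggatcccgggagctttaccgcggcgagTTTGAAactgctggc
Top2a: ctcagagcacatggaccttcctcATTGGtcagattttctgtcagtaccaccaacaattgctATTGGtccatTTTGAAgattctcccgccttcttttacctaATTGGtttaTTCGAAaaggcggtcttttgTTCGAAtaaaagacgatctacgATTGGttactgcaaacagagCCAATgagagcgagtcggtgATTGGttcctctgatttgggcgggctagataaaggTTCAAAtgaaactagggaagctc
Mcm6: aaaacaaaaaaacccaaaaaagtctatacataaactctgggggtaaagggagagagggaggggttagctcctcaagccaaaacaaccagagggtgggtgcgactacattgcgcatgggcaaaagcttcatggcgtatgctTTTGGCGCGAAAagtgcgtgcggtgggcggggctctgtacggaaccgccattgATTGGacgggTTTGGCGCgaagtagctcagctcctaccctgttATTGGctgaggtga
Cdk2: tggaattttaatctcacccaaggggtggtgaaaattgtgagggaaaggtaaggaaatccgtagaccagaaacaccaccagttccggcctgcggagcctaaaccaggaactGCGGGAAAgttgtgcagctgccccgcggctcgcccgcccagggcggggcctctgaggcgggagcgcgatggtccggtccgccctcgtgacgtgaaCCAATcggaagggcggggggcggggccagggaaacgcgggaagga
Pcna: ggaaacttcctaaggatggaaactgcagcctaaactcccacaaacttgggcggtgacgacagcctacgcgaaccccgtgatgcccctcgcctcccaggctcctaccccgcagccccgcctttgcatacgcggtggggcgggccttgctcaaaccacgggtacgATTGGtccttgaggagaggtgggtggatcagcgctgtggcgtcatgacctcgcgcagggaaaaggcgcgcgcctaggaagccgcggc

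A CHR word stood in 10 of 12 windows of the mitotic genes (83.3%), in 3 of 13 windows of the replication and nucleotide genes (23.1%), and in 19.2% of all 32851 windows. CCAAT stood in 10 of the 12 mitotic windows, in 10 of the 13 replication windows (76.9%), and in 37.4% of all windows. The 2 words occurred together in 9 of the 12 mitotic windows and in 7.525% of all windows. An E2F word stood in 6 of the 13 replication windows (46.2%), in 1 of the 12 mitotic windows, that of Cdk1, and in 2.365% of all windows. TTCGAA is its own reverse complement, and in Mcm6 a forward and a reverse E2F word overlap by 4 letters. The Pcna window held 1 CCAAT word, on the reverse strand, and no CHR or E2F word. These matches describe the letters of the windows and are not evidence of binding.

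The libraries held 12216704 to 24880683 counts, most in the WT no pump hearts (18382102 to 24880683) and fewest in the MCT1KO Ang/PE hearts (12216704 to 16565155). Mitochondrially encoded genes took 8.87% to 18.4% of them. Slc16a1, the gene named in the genotype, was not lost in the libraries labelled MCT1KO: with no pump it stood at 199.8 ± 29.6 (SD, n = 3) CPM (the count scaled to the size of the library) against 203 ± 36.8 (n = 4) in WT, with saline at 158 ± 26.0 (n = 4) against 199 ± 29.9 (n = 6), and with Ang/PE at 189.8 ± 21.9 (n = 5) against 214 ± 10.6 (n = 3). Adjusted p-values by edgeR were 0.976, 0.219 and 0.807. A count over the whole gene cannot show which cells or exons carry a deletion, so MCT1KO below means the label. Xist, the RNA of the inactive X chromosome, split the hearts into 13 with at least 548 CPM and 12 with at most 0.536, and the high hearts made up 2 of 4 WT and 0 of 3 MCT1KO no pump hearts, 1 of 6 WT and 3 of 4 MCT1KO saline hearts, and 3 of 3 WT and 4 of 5 MCT1KO Ang/PE hearts. Cardiomyocyte markers were high in every group, with Myh6, Tnnt2, Actn2, Ryr2 and Pln together at 28744 to 51048 CPM. Atrial and fat markers were uneven among the saline hearts. The atrial sum ran from 46.6 to 2596 CPM in WT and from 64.0 to 7385 in MCT1KO saline hearts. The fat sum ran from 0.233 to 29.0 CPM and from 0.875 to 1069. Every comparison with a saline group below holds these hearts, and the part of these tissues in the results was not tested.

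Few of the 34 genes were called between treatments, and none was called between genotypes within a treatment by edgeR or DESeq2. Across 11 comparisons edgeR's quasi-likelihood test with Benjamini-Hochberg adjustment (called at an adjusted p below 0.05) gave 3 calls: Cdk2 fell with Ang/PE against saline in MCT1KO hearts, Ccnd2 rose with Ang/PE against no pump in MCT1KO hearts, and Pcna fell with saline against no pump in WT hearts. The genes of mitosis had no call and varied widely among hearts of a group.

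**Figure D1:**
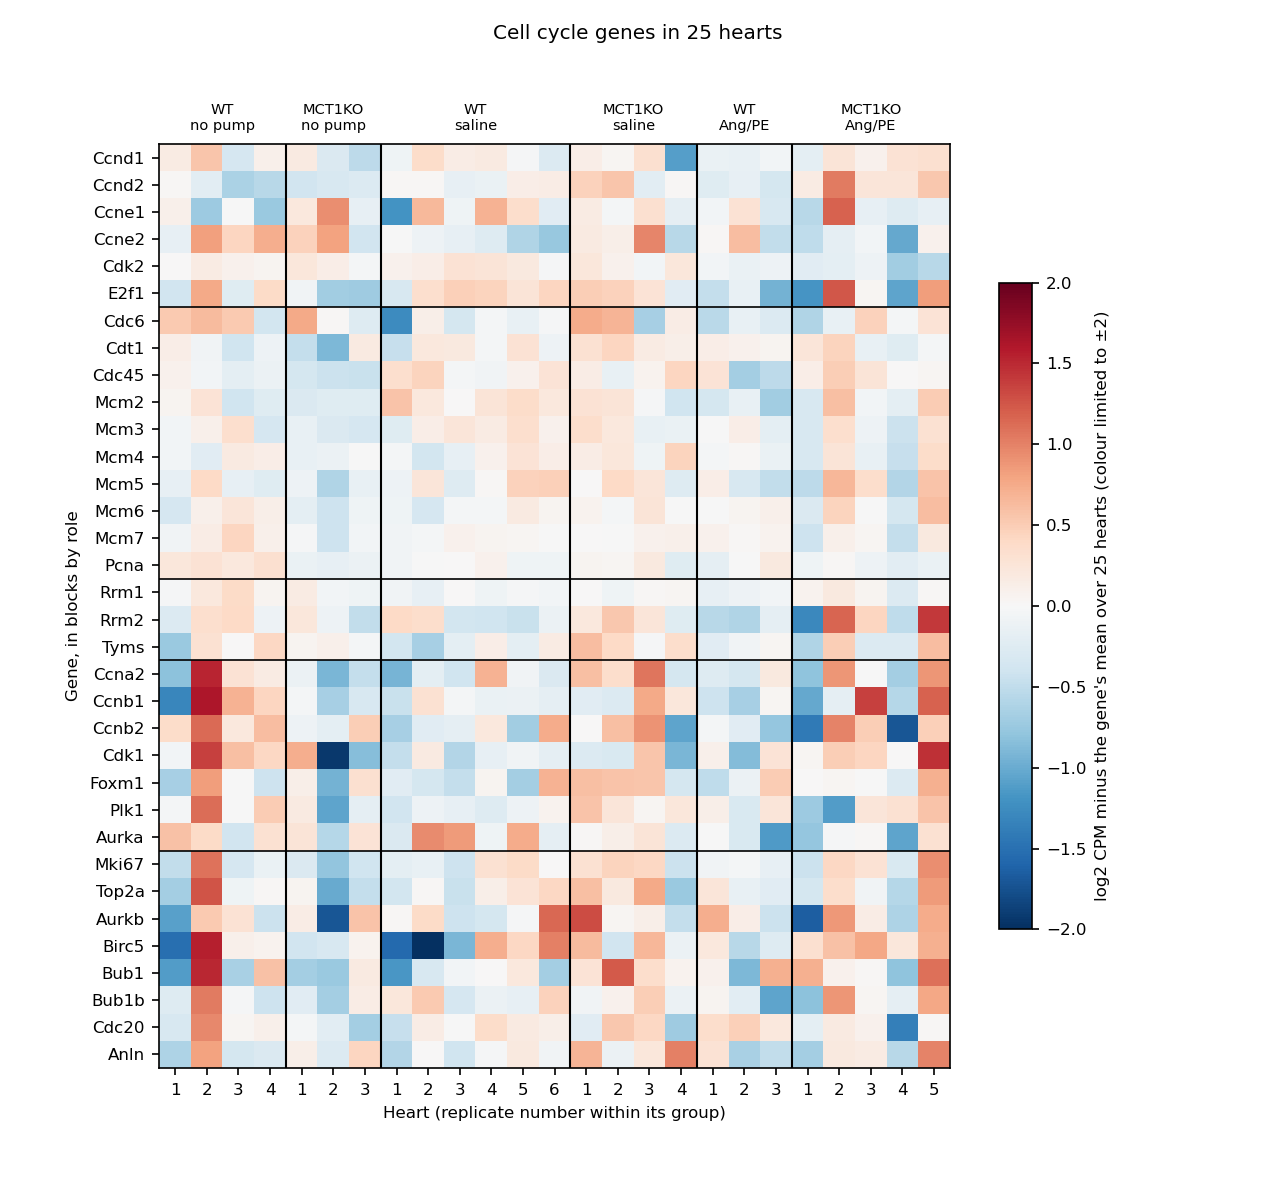
Level of each of the 34 genes (rows, in blocks by role) in each of the 25 hearts (columns, by group and replicate number), as log2 CPM minus the gene's mean over all hearts, with the colour limited to ±2. The mitotic blocks at the bottom are red through WT no pump replicate 2, the highest heart of its group in 14 of 15 of these genes.

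For Ang/PE against saline, 0 of 34 genes were called in WT hearts, where 0.017% of all tested genes were. At an unadjusted p below 0.05 there were 4 (Mcm2, Aurka, Cdc45 and Cdk2, all lower), against 19.1% of all genes. DESeq2 called 1, Mcm2, and the alternatives, of which DESeq2 is 1, called 0 to 945 of all genes here. In MCT1KO hearts 1 gene was called, Cdk2, against a background of 4.46%, and it was also the only one at an unadjusted p below 0.05, where the background was 20.4%. The median log2 fold change of the 34 genes was -0.09 in WT and -0.11 in MCT1KO hearts, beside -0.01 over all genes in each. In WT 11 of the 34 were higher with Ang/PE and in MCT1KO 15. Leaving out each heart in turn moved the WT median between -0.16 and -0.03, and the MCT1KO median turned to 0.01 without MCT1KO saline replicate 3. The shares of calls were at or below those of the genes at large.

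In WT hearts given saline rather than no pump 1 gene was called, Pcna, beside 6.61% of all genes. There were 6 at an unadjusted p below 0.05 beside a background of 24.3%, with Pcna, Ccne2, Rrm1, Cdk1 and Plk1 lower and Ccnd2 higher. In MCT1KO hearts none was called by edgeR or DESeq2, beside 0.00566% of all genes, and 3 (Ccnd2, Cdc45 and Cdt1, all higher) were at an unadjusted p below 0.05, beside 12.1%. The median log2 difference was -0.15 in WT, with 11 of 34 higher, and 0.33 in MCT1KO, with 30 of 34 higher, while all genes had medians of 0.00 and 0.01. By role, the WT medians were 0.04 for licensing and the fork, -0.65 for mitotic entry and -0.18 for mitosis and cytokinesis, and the MCT1KO medians 0.30, 0.45 and 0.45. The WT median turned to 0.11 without WT no pump replicate 2.

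For Ang/PE against no pump, none of the 34 was called in WT hearts by edgeR or DESeq2, beside 0% of all genes, and 2 (Pcna and Rrm1, lower) were at an unadjusted p below 0.05, beside 9.02%. In MCT1KO hearts 1 was called, Ccnd2, beside 0.503%, and 5 were at an unadjusted p below 0.05, beside 13.1%: Ccnd2, Cdc45, Mcm2 and Mki67 higher and Cdk2 lower. Medians were -0.27 in WT, with 6 of 34 higher, and 0.30 in MCT1KO, with 29 of 34 higher. The 3 treatment comparisons within a genotype share hearts, so their directions are not independent of each other. The WT median was -0.10 without WT no pump replicate 2, and the MCT1KO median 0.18 without MCT1KO Ang/PE replicate 5.

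**Figure D2:**
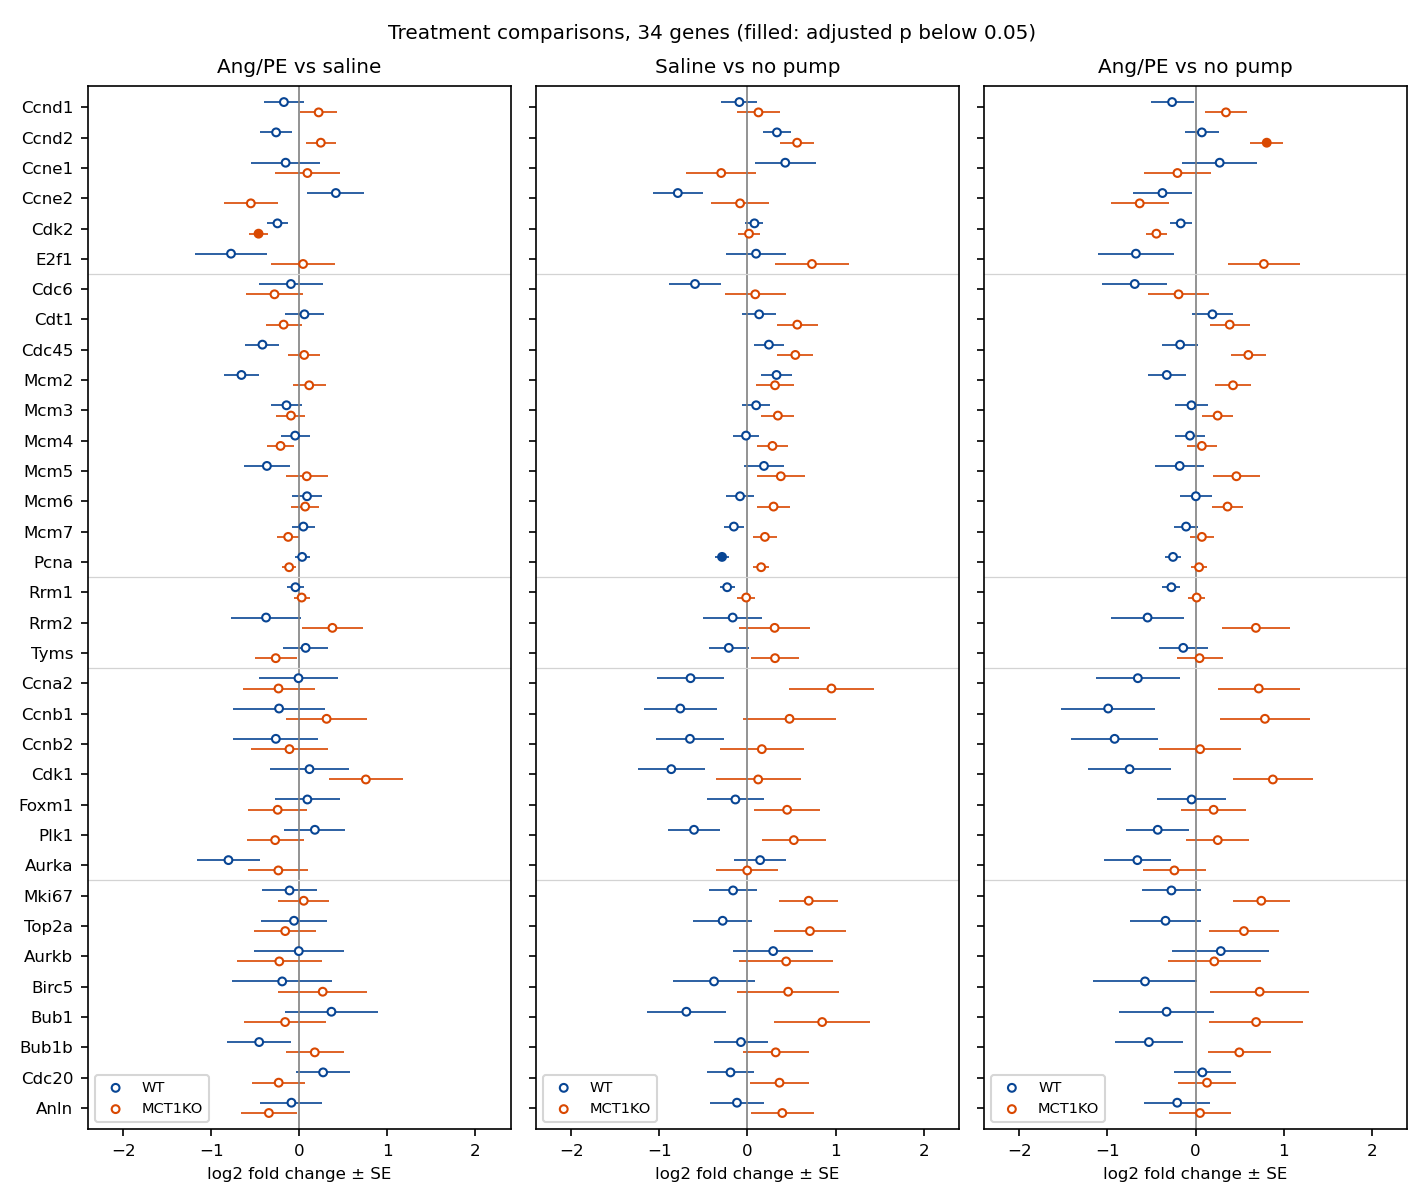
Log2 fold change ± SE of each of the 34 genes for Ang/PE against saline, saline against no pump and Ang/PE against no pump, in WT (blue) and MCT1KO (orange) hearts, with filled points for an adjusted p below 0.05. The 3 filled points are Cdk2 (-0.46), Pcna (-0.29) and Ccnd2 (0.81), and the error bars of the mitotic genes in the lower blocks are wider than those of the replication genes.

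Among the G1 genes, Cdk2 encodes the kinase that cyclins E and A activate at the start and through S phase. In the MCT1KO saline hearts it stood at 12.04, 10.9, 9.87 and 12.03 CPM, and in the MCT1KO Ang/PE hearts at 8.78, 9.01, 9.63, 6.35 and 7.02 CPM. Every Ang/PE heart was below every saline heart. Cdk2 fell by 0.46 on the log2 scale (SE 0.11, 0.726-fold, adjusted p = 0.0192 by edgeR). Against the MCT1KO no pump hearts, at 12.02, 11.2 and 10.01 CPM, the Ang/PE hearts again did not overlap, with a log2 difference of -0.45 (SE 0.12, adjusted p = 0.0825 by edgeR).

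In WT hearts Cdk2 stood at 9.96, 9.43 and 9.65 CPM with Ang/PE and between 10.1 and 12.6, with a median of 11.5, in the 6 saline hearts. The 4 WT no pump hearts were at 10.4, 11.5, 10.9 and 10.7 CPM. The WT Ang/PE hearts too lay below all WT hearts of the other treatments, with a log2 difference from saline of -0.25 (SE 0.11, adjusted p = 0.241 by edgeR). The difference between the genotypes in this step was -0.21 (SE 0.16, 95% interval -0.54 to 0.11, adjusted p = 0.555 by edgeR).

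Fat and atrial transcripts differed between the hearts of the Cdk2 comparison. The 5 adipocyte markers (Adipoq, Plin1, Cidec, Ucp1 and Lep) summed to 45.1, 28.5, 0.875 and 1069 CPM in MCT1KO saline replicates 1 to 4 and to at most 0.559 in the MCT1KO Ang/PE hearts, where Ucp1 and Lep were at 0. The 4 atrial markers (Myl7, Myl4, Sln and Nppa) summed to 64.0 to 7385 CPM with saline and 316 to 5149 with Ang/PE, Myl7 reaching 1357 with saline and 0.279 with Ang/PE. Cardiomyocyte markers summed to 28744 to 43793 CPM with saline and 34755 to 47772 with Ang/PE. MCT1KO saline replicate 3, which held little of either, had the lowest Cdk2 of its group, 9.87 CPM. The highest MCT1KO Ang/PE heart stood at 9.63 CPM. The part of these tissues in the result was not tested further. The call was lost without MCT1KO saline replicate 4 (-0.43, adjusted p = 0.0945 by edgeR) or Ang/PE replicate 5 (-0.41, 0.0508), with no filter on low counts (0.0516), and in a fit of the compared groups alone (0.23). Cdk2 overlaps Pmel on the opposite strand, and whether counting used strand is not given in the sources used here.

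Ccnd2 encodes cyclin D2, a partner of CDK4 and CDK6 in G1 and the D-type cyclin best known from cardiomyocytes. It stood at 182, 189 and 197 CPM in the MCT1KO no pump hearts, at 325, 347, 206 and 241 in the MCT1KO saline hearts, and at 265, 489, 281, 279 and 343 in the MCT1KO Ang/PE hearts. All MCT1KO hearts with a pump lay above all those without. Ccnd2 rose with Ang/PE against no pump by 0.81 (SE 0.19, 1.75-fold, adjusted p = 0.047 by edgeR), while saline against no pump gave 0.56 (SE 0.19, adjusted p = 0.242 by edgeR) and Ang/PE against saline 0.24 (SE 0.17). In WT hearts it stood at 241, 204, 152 and 160.4 CPM with no pump, between 211 and 263 with a median of 240.4 with saline, and at 201, 210.2 and 185 with Ang/PE. The WT groups overlapped except that each Ang/PE heart lay below each saline heart, at a log2 difference of -0.26 (SE 0.18, adjusted p = 0.431 by edgeR).

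Between genotypes under Ang/PE, each MCT1KO heart had more Ccnd2 than each WT heart, with a log2 difference of 0.74 (SE 0.19, unadjusted p = 0.000603, adjusted p = 0.692 by edgeR). The highest heart, MCT1KO Ang/PE replicate 2, also had the highest Nppa of its group, 5144 CPM, and without it the change against no pump was 0.62 (adjusted p = 0.106 by edgeR). The call was lost as well without any of the 3 MCT1KO no pump hearts (adjusted p = 0.158, 0.285 and 0.0952) or Ang/PE replicate 5 (0.0821). With Xist as a covariate the change was 0.78 (adjusted p = 0.191 by edgeR). All 3 no pump hearts were Xist-low, and the Xist-low Ang/PE heart, replicate 5, stood at 343 CPM. The gene models Gm43126 and 9330179D12Rik, overlap Ccnd2 on the opposite strand.

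**Figure D3:**
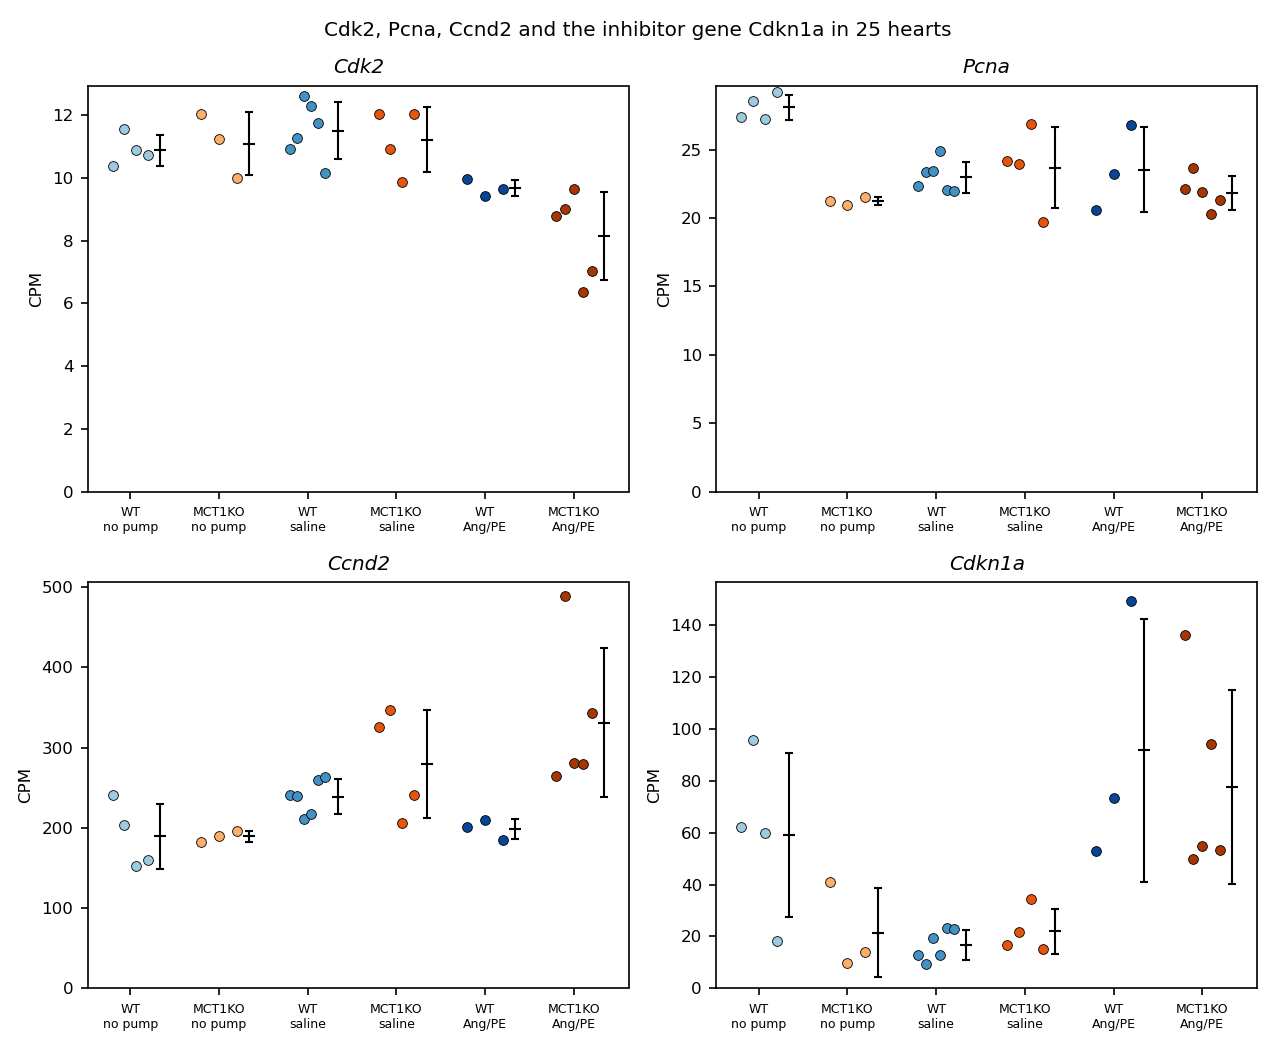
CPM of Cdk2, Pcna, Ccnd2 and the inhibitor gene Cdkn1a in each of the 25 hearts (points), with the mean ± SD of each of the 6 groups beside them; all axes start at 0. Cdk2 is lowest in the Ang/PE groups, Pcna is highest in the 4 WT no pump hearts (27.2 to 29.2), and Cdkn1a is above all saline hearts in every Ang/PE heart and spread widely among the WT no pump hearts (18.2 to 95.8).

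Ccnd1, which encodes cyclin D1, had no call in any comparison. It stood at 81.6, 107, 57.1 and 78.1 CPM in WT and 81.8, 59.3 and 50.7 in MCT1KO no pump hearts, between 59.8 and 93.4 with a median of 75.9 in WT saline hearts, and at 79.7, 74.7, 90.9 and 33.74 in MCT1KO saline hearts. With Ang/PE it was 66.4, 65.8 and 69.5 CPM in WT and 63.4, 86.7, 76.7, 88.4 and 90.5 in MCT1KO hearts. The groups overlapped in all 9 comparisons of a pair of groups, and the lowest heart was MCT1KO saline replicate 4, the one with most fat marker RNA.

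E2f1, the activator of S phase genes, was counted sparsely, with 6 to 43 counts a heart. It stood at 0.948, 2.10, 1.05 and 1.61 CPM in WT and 1.18, 0.761 and 0.760 in MCT1KO no pump hearts, between 0.988 and 1.73 with a median of 1.62 in WT saline hearts, and at 1.74, 1.70, 1.4996 and 1.06 in MCT1KO saline hearts. In WT Ang/PE hearts it was 0.895, 1.12 and 0.643 CPM, and in MCT1KO Ang/PE hearts 0.549, 2.93, 1.27, 0.598 and 2.22. The MCT1KO Ang/PE group held both the lowest and the highest of the 25 values, and the groups overlapped. Ccne1 and Ccne2, the cyclins E that work with CDK2, ran from 0.349 to 1.82 CPM and from 0.897 to 3.56 CPM over all hearts and had no call, the closest being Ccne2 for saline against no pump in WT (-0.79, SE 0.28, adjusted p = 0.0877 by edgeR).

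Among the replication genes, Pcna encodes the sliding clamp that holds DNA polymerase on its template. The 4 WT no pump hearts stood at 27.4, 28.6, 27.2 and 29.2 CPM, and the 6 WT saline hearts between 21.95 and 24.9 with a median of 22.8. No heart of these groups overlapped, and Pcna fell with saline by 0.29 on the log2 scale (SE 0.08, 0.819-fold, adjusted p = 0.0312 by edgeR). The MCT1KO no pump hearts were at 21.2, 20.97 and 21.5 CPM, all below the WT no pump hearts, with a log2 difference of -0.40 (SE 0.09, unadjusted p = 0.000244, adjusted p = 0.227 by edgeR). WT no pump hearts thus had the highest Pcna of all groups.

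The Pcna values of the remaining groups ran from 19.7 to 26.9 CPM, the highest of them close to the lowest WT no pump heart at 27.2. They were 24.2, 23.95, 26.9 and 19.7 CPM with saline and 22.1, 23.7, 21.9, 20.3 and 21.3 with Ang/PE in MCT1KO hearts, and 20.6, 23.2 and 26.8 with Ang/PE in WT hearts. The genotypes differed in the step from no pump to saline by 0.44 (SE 0.12, 95% interval 0.19 to 0.70, adjusted p = 0.131 by edgeR), which DESeq2 called (adjusted p = 0.0376) and edgeR called without WT no pump replicate 1 (0.044).

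The Pcna call in WT was lost without no pump replicates 2, 3 or 4 (adjusted p = 0.0735, 0.0771 and 0.0988 by edgeR), without saline replicates 3 or 5 (0.0505 and 0.0581), with no filter on low counts (0.132), and with Xist as a covariate (0.0676), at log2 values of -0.31 to -0.27 for the left-out hearts. The 5 macrophage markers (Adgre1, Csf1r, C1qa, Cd68 and Mrc1) summed to 168 to 279.6 CPM in the WT no pump hearts and 135 to 189 in the WT saline hearts, the adipocyte markers to at most 0.549 and to 0.233 to 29.0, and the atrial markers to 60.3 to 132 and 46.6 to 2596. The macrophage sums of WT no pump replicates 1 to 4 were 168, 279.6, 272 and 276 CPM, beside the Pcna values given above in the same order. Cardiomyocyte markers summed to 29688 to 44815 CPM with a median of 32625 in the WT no pump hearts and to 43145 to 51048 with a median of 47598 in the WT saline hearts. The mitochondrial share was 14.78% to 18.4% and 8.94% to 14.77%, without overlap. With mitochondrially encoded genes removed, the Pcna change was -0.30 (adjusted p = 0.0255 by edgeR). The part of the cell markers in the result was not tested. The pseudogenes Pcna-ps1 and Pcna-ps2 could share reads with Pcna, since the treatment of reads that match several places is not given in the sources used here.

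Mcm2 encodes a subunit of the MCM2-7 helicase, which is loaded at origins and unwinds DNA at the fork. It stood at 6.20, 7.20 and 4.93 CPM in WT Ang/PE hearts and between 7.96 and 11.8 with a median of 9.35 in WT saline hearts. Those groups did not overlap, and the log2 difference was -0.66 (SE 0.20), which missed the threshold with edgeR (adjusted p = 0.098) and passed it with DESeq2. In MCT1KO hearts it was 9.67, 9.49, 7.81 and 6.02 CPM with saline and 6.40, 12.01, 7.64, 6.95 and 11.3 with Ang/PE, which overlapped, at a log2 difference of 0.11 (SE 0.19). The no pump hearts were at 8.21, 9.65, 6.04 and 6.76 CPM in WT and 6.48, 6.73 and 6.70 in MCT1KO. The genotypes differed in the step from saline to Ang/PE by 0.77 (SE 0.27, 95% interval 0.20 to 1.33, adjusted p = 0.297 by edgeR).

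No other gene of this role was called. Over all 25 hearts the other helicase subunits Mcm3 to Mcm7 varied between their lowest and highest heart by 1.72-fold (Mcm3) to 2.41-fold (Mcm5). Cdc45, which joins the helicase when it becomes active, had lower means in MCT1KO no pump hearts, at 2.02 CPM, than in MCT1KO saline (2.95) and Ang/PE hearts (3.07), with no overlap. Its log2 differences from no pump were 0.54 (SE 0.21, adjusted p = 0.284 by edgeR) and 0.60 (SE 0.20, adjusted p = 0.173 by edgeR). Cdc6 and Cdt1, the factors that load the helicase, ran from 0.291 to 1.18 and from 0.996 to 2.51 CPM. Cdc45 overlaps Ufd1 and Mcm7 overlaps Cops6 and Ap4m1 on the opposite strand, and Mcm7 also holds the microRNA genes Mir25, Mir93 and Mir106b.

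The 3 nucleotide supply genes had no call. Rrm1, the large subunit of ribonucleotide reductase, was among the steadiest of the 34 genes, with 14.4 to 22.8 CPM over the 25 hearts, and Rrm2, the small subunit made in S phase, ran from 0.823 to 5.40 CPM. The largest values of Rrm2 were in the MCT1KO Ang/PE group, where the mean was 2.98 CPM against 1.495 in WT Ang/PE hearts, a log2 difference of 1.02 (SE 0.41, adjusted p = 0.692 by edgeR) with overlap. Tyms, which makes thymidylate, ran from 1.67 to 4.28 CPM.

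Among the mitotic genes, Mki67 encodes the Ki-67 protein that coats mitotic chromosomes and marks cycling cells. It stood at 6.50, 19.3, 7.24 and 8.26 CPM in WT and 7.46, 5.27 and 6.93 in MCT1KO no pump hearts, between 6.82 and 11.9 with a median of 8.69 in WT saline hearts, and at 11.3, 12.4, 12.1 and 6.78 in MCT1KO saline hearts. With Ang/PE it was 8.65, 8.81 and 8.15 CPM in WT and 6.77, 12.1, 11.1, 7.40 and 17.3 in MCT1KO hearts. A single WT no pump heart, replicate 2, was the highest of all 25, and the other 3 of its group lay below the WT saline median. Ang/PE against saline gave log2 differences of -0.11 (SE 0.31) in WT and 0.05 (SE 0.29) in MCT1KO hearts, and Ang/PE against no pump 0.75 (SE 0.33, adjusted p = 0.315 by edgeR) in MCT1KO hearts.

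Top2a, the topoisomerase that untangles sister chromatids, followed a like order. It stood at 2.71, 10.4, 4.10 and 4.40 CPM in WT and 4.51, 2.17 and 3.13 in MCT1KO no pump hearts, between 3.19 and 5.78 with a median of 4.54 in WT saline hearts, and at 6.60, 4.97, 7.31 and 2.60 in MCT1KO saline hearts. The Ang/PE hearts were at 5.13, 3.91 and 3.72 CPM in WT and 3.38, 5.52, 4.14, 2.92 and 7.86 in MCT1KO. WT no pump replicate 2 was again the highest of all hearts and MCT1KO Ang/PE replicate 5 the next, and the groups overlapped. Its log2 differences for Ang/PE against saline were -0.06 (SE 0.38) in WT and -0.16 (SE 0.35) in MCT1KO hearts.

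Cdk1, the kinase that drives entry into mitosis, had 4 to 47 counts a heart. It stood at 0.857, 2.29, 1.35 and 1.18 CPM in WT and 1.47, 0.234 and 0.492 in MCT1KO no pump hearts, between 0.596 and 1.00 with a median of 0.787 in WT saline hearts, and at 0.740, 0.720, 1.31 and 0.472 in MCT1KO saline hearts. With Ang/PE it was 0.954, 0.489 and 1.07 CPM in WT and 0.914, 1.26, 1.19, 0.897 and 2.46 in MCT1KO hearts. The highest values were those of MCT1KO Ang/PE replicate 5 and WT no pump replicate 2, and groups overlapped in every comparison. The closest to a call was saline against no pump in WT (-0.86, SE 0.38, adjusted p = 0.16 by edgeR).

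Foxm1 encodes a transcription factor of the mitotic wave. It stood at 0.857, 2.44, 1.35 and 1.02 CPM in WT and 1.47, 0.703 and 1.70 in MCT1KO no pump hearts, between 0.851 and 2.20 with a median of 1.11 in WT saline hearts, and at 2.06, 2.03, 2.00 and 1.06 in MCT1KO saline hearts. With Ang/PE it was 0.954, 1.26 and 1.93 CPM in WT and 1.37, 1.40, 1.35, 1.12 and 2.22 in MCT1KO hearts. WT no pump replicate 2 was once more the highest heart, and all groups overlapped. Its smallest adjusted p over the comparisons of a pair of groups was that of MCT1KO against WT with saline, 0.456 by edgeR, at a log2 difference of 0.47 (SE 0.32).

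The other mitotic genes were cyclins and kinases of mitotic entry (Ccna2, Ccnb1, Ccnb2, Plk1 and Aurka), the chromosomal passenger proteins Aurkb and Birc5, the spindle checkpoint kinases Bub1 and Bub1b, Cdc20, which activates the anaphase-promoting complex, and Anln, the anillin of the cleavage furrow. None of these 11 was called in any comparison. Ccnb1, Ccnb2, Plk1, Aurka, Aurkb, Birc5 and Bub1 had medians of 7 to 14 counts a heart, so counting error adds to their spread. The fitted spread beyond counting, as a fraction of the mean, ran from 0.189 (Plk1) to 0.432 (Birc5) in these genes. Birc5 varied most of all 34 genes, 12.05-fold between its lowest and highest heart. The median SE of a log2 fold change for Ang/PE against saline in MCT1KO hearts was 0.41 for mitotic entry and 0.34 for mitosis and cytokinesis, against 0.17 for licensing and the fork, so the mitotic changes were measured less precisely.

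**Figure D4:**
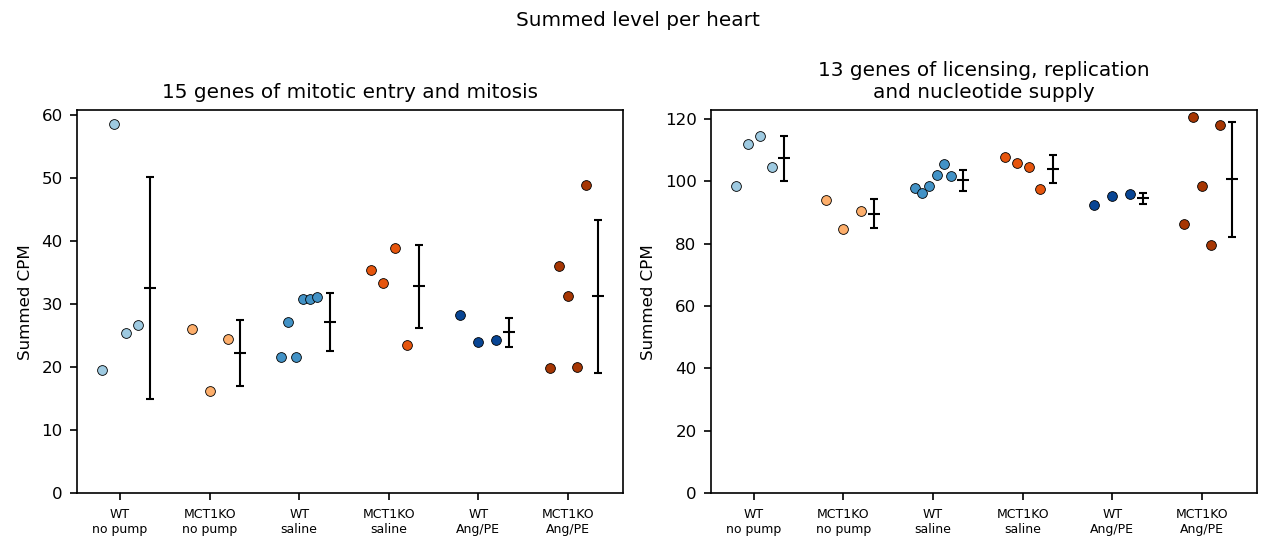
Summed CPM of the 15 genes of mitotic entry and mitosis (left) and of the 13 genes of licensing, replication and nucleotide supply (right) in each heart (points), with the mean ± SD of each group. A single WT no pump heart stands at 58.6 on the left, above the other 3 at 19.6 to 26.6, while on the right the same heart lies within its group.

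Single hearts moved the mitotic genes together. Summed over the 15 mitotic genes, the WT no pump hearts stood at 19.6, 58.6, 25.4 and 26.6 CPM. Replicate 2 was the highest of its group in 14 of these 15 genes but in 3 of the 13 replication and nucleotide genes, whose sum was 98.5, 112, 114 and 104 CPM. The MCT1KO no pump hearts summed to 26.1, 16.2 and 24.4 CPM for the mitotic genes, with replicate 2 the lowest in 13 of 15. Counts of highest and lowest hearts, here and below, were not made over all genes, so they may not be particular to these genes.

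In the MCT1KO Ang/PE group both sums were highest in replicates 2 and 5 and lowest in replicates 1 and 4, with replicate 3 between. The mitotic genes summed to 19.9, 36.0, 31.4, 20.04 and 48.9 CPM and the replication and nucleotide genes to 86.2, 121, 98.4, 79.6 and 118 CPM. Replicates 2 and 5 were each the highest of the group in 15 of all 34 genes, and replicates 1 and 4 the lowest in 14 and 19. Some cell type marker lists were also highest in replicates 2 and 5, and others were not. Macrophage markers summed to 149, 235, 141, 139 and 185 CPM and fibroblast markers to 707, 1385, 795, 734 and 1214. Lymphocyte markers summed to 13.3, 22.7, 17.9, 15.1 and 20.8 CPM, and each of these lists was highest in replicates 2 and 5. The sum of the atrial list was highest there too (5149 and 1762 against 316 to 496 CPM), but nearly all of it was Nppa. In this group Nppa ran from 313 to 5144 CPM, while Myl4 reached 5.45, Myl7 0.279 and Sln 0.1495 CPM. Cardiomyocyte markers were lowest in replicates 2 and 5, at 35320 and 34755 CPM against 46725 to 47772. Endothelial markers summed to 688, 713, 856, 879 and 702 CPM, highest in replicates 3 and 4. Smooth muscle and pericyte markers summed to 828, 648, 733, 876 and 654 CPM, lowest in replicates 2 and 5. The part of these cells in the sums was not tested.

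The saline groups spread less than the WT no pump and MCT1KO Ang/PE groups, with SDs of 4.56 in WT and 6.63 in MCT1KO against 17.6 and 12.1 CPM. The mitotic sum ran from 21.6 to 31.1 CPM with a median of 29.0 in WT saline hearts and was 35.5, 33.3, 38.9 and 23.5 CPM in MCT1KO saline hearts, where replicate 4, which held most fat and atrial RNA, was the lowest in 11 of 15 mitotic and 20 of all 34 genes. WT Ang/PE hearts stood at 28.2, 23.97 and 24.4 CPM. Between the saline and Ang/PE groups of each genotype the mitotic sums overlapped.

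Comparing genotypes within a treatment, edgeR called none of the 34 genes and 0% of all genes in each of the 3 comparisons, and DESeq2 also called none of the 34. At an unadjusted p below 0.05 there were 3 with no pump (Pcna, Mcm7 and Ccna2, all lower in MCT1KO), beside 12.2% of all genes. With saline there were 2 (Tyms and Anln, higher in MCT1KO), beside 17%. With Ang/PE there were 5 (Ccnd2, Mcm2, Rrm2 and Cdc45 higher and Cdk2 lower in MCT1KO), beside 6.92%. The median log2 difference of the 34 genes was -0.28, 0.19 and 0.23, with 4, 23 and 26 of 34 higher in MCT1KO, beside medians of -0.00, 0.03 and 0.00 over all genes. With no pump all 10 licensing and fork genes and all 7 mitotic entry genes were lower in MCT1KO, with medians of -0.26 and -0.70, and 2 of the 8 genes of mitosis and cytokinesis were higher, with a median of -0.59. Between these no pump hearts the macrophage sums also differed, at 168 to 279.6 CPM (median 274) in WT and 132 to 182 (median 172) in MCT1KO, and the cardiomyocyte sums had medians of 32625 and 43592; their part was not tested. With Ang/PE the medians of the 3 roles were 0.06, 0.39 and 0.32, with 7 of 10, 6 of 7 and 6 of 8 higher. The no pump median was -0.17 without WT no pump replicate 2, the saline median 0.05 without MCT1KO saline replicate 3, and the Ang/PE median 0.09 without MCT1KO Ang/PE replicate 5.

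**Figure D5:**
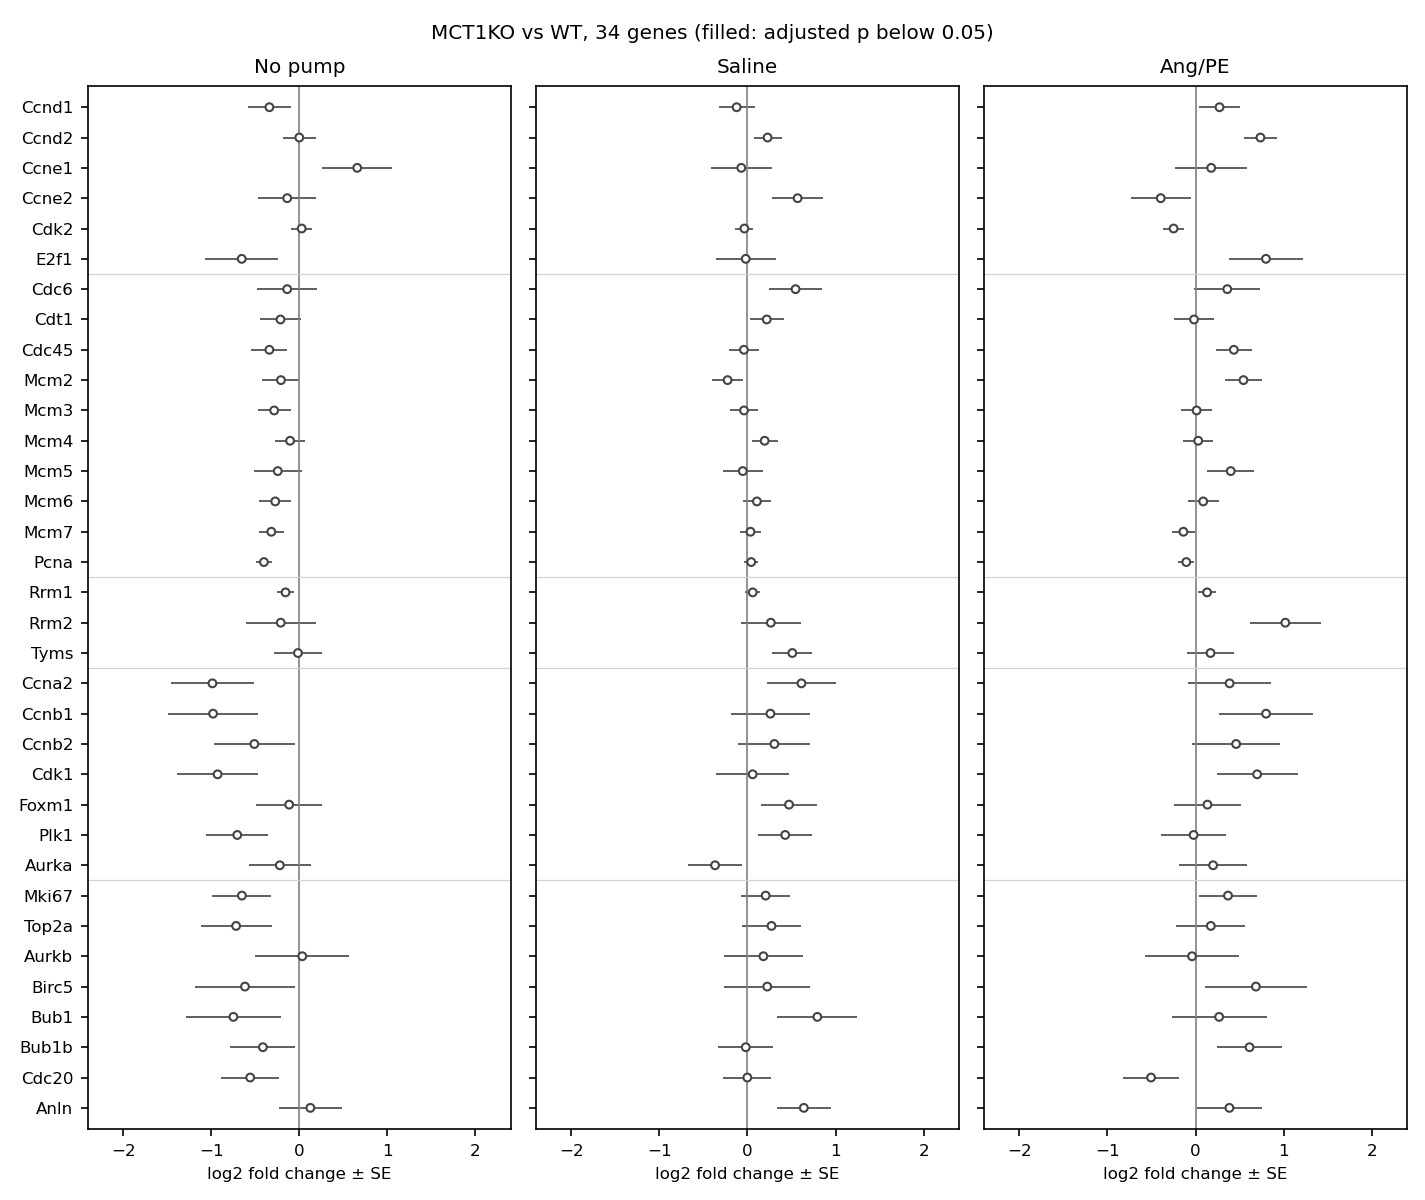
Log2 fold change ± SE of each of the 34 genes for MCT1KO against WT hearts with no pump, saline and Ang/PE; open points did not pass an adjusted p of 0.05. All points are open, and 30 of 34 lie left of 0 with no pump while 26 of 34 lie right of 0 with Ang/PE.

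The test of whether the genotypes differ in a treatment step gave no call among the 34 genes with edgeR. For Ang/PE against saline, 0% of all genes were called and 3 of the 34 were at an unadjusted p below 0.05 (Mcm2, Ccne2 and Ccnd2), beside 13.5% of all genes, with a median of 0.01 and 17 of 34 above 0 (-0.16 without MCT1KO Ang/PE replicate 2), and DESeq2 called none of the 34. For saline against no pump 0.00566% of all genes were called and 4 of the 34 (Pcna, Ccna2, Plk1 and Bub1) were at an unadjusted p below 0.05, beside 17.2%. DESeq2 called Pcna, where the alternatives called 0 to 371 of all genes. The median there was 0.46, with 30 of 34 above 0, beside 0.03 over all genes. Ccna2, the cyclin of S and G2 phase, had the largest value of the 34, 1.599 (SE 0.61, adjusted p = 0.194 by edgeR), and 1.03 without WT no pump replicate 2.

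Genes of the same pathway outside the 34 were followed in 4 lists. Of 19 tested inhibitors and quiescence genes (20 listed), 10.5% to 31.6% were at an unadjusted p below 0.05 in each comparison of a pair of groups. All genes had 6.92% to 24.3%, and between genotypes with saline the list had 31.6% beside 17%. Cdkn1a was the only one called by edgeR. The calls were for Ang/PE against saline in MCT1KO and saline against no pump in WT, where 4.46% and 6.61% of all genes were called. Cdkn1a encodes p21, an inhibitor of CDK2 that p53 and other stress signals induce. In MCT1KO hearts Cdkn1a stood at 16.9, 21.7, 34.4 and 14.98 CPM with saline and at 136, 49.7, 54.9, 94.1 and 53.3 with Ang/PE, without overlap, and rose by 1.82 (SE 0.50, 3.53-fold, adjusted p = 0.0443 by edgeR). In WT hearts it stood between 9.28 and 23.3 CPM with a median of 16.1 with saline and at 52.8, 73.3 and 149 with Ang/PE, again without overlap, and the difference of 2.45 (SE 0.49) missed the threshold (adjusted p = 0.0503 by edgeR). Ang/PE hearts of both genotypes thus lay above all saline hearts.

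Against no pump, Cdkn1a fell with saline in WT hearts by 1.82 (SE 0.46, adjusted p = 0.0261 by edgeR). The WT no pump hearts stood at 62.4, 95.8, 60.1 and 18.2 CPM and overlapped the saline hearts through replicate 4. In MCT1KO no pump hearts it was 41.0, 9.60 and 13.9 CPM, and the difference from saline was 0.03 (SE 0.56). The genotype difference in the Ang/PE step was -0.63 (SE 0.69, adjusted p = 0.712 by edgeR). The MCT1KO call was lost without any heart of its groups except saline replicate 3 and Ang/PE replicate 2 (adjusted p up to 0.196), with no low-count filter (0.0936) and in a fit of the compared groups alone (0.159), and the WT call without no pump replicates 2 or 3 or saline replicates 2 or 4 (up to 0.098), with no low-count filter (0.0622) and with Xist as a covariate (0.0683). The fat and atrial sums given beside Cdk2 are those of the same MCT1KO hearts, and their part was not tested.

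Of 31 tested replication genes outside the 34 (33 listed), Pola1, the catalytic subunit of DNA polymerase alpha, was the only one called. It was called for saline against no pump in WT, where 6.61% of all genes were. It stood at 10.4, 12.5, 14.5 and 14.5 CPM in WT no pump hearts and between 7.09 and 9.998 with a median of 9.68 in WT saline hearts, without overlap, and fell by 0.49 (SE 0.14, adjusted p = 0.0422 by edgeR). That call held without 2 of the 10 hearts in turn, with adjusted p up to 0.158 and log2 values of -0.58 to -0.42, and was lost with no low-count filter (0.0723) and with Xist as a covariate (0.0674). For Ang/PE against saline the list's median was -0.18 in WT, with 5 of 31 higher and 5 genes lower at an unadjusted p below 0.05 (16.1%, beside 19.1% of all genes), and -0.08 in MCT1KO, with 10 of 31 higher.

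Neither the 17 tested G1 genes (18 listed) nor the 42 tested genes of mitosis and cytokinesis (46 listed) held a call in any of the 11 comparisons by edgeR. At an unadjusted p below 0.05 the mitosis list had 7 for saline against no pump in WT (2 higher, 5 lower) and 5 in MCT1KO (4 higher, 1 lower), shares of 16.7% and 11.9% beside 24.3% and 12.1% of all genes. Its medians were -0.23 and 0.34 for saline against no pump in WT and MCT1KO, with 10 and 37 of 42 higher, and -0.06 in each genotype for Ang/PE against saline, where 3 genes of the list (7.14%) were at an unadjusted p below 0.05 in each, beside 19.1% and 20.4% of all genes. The G1 list had 1 to 4 genes (5.88% to 23.5%) at an unadjusted p below 0.05 in each comparison of a pair of groups, where all genes had 6.92% to 24.3%, and its medians ran from -0.09 to 0.06.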

How the data were processed

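RNA from 25 mouse hearts was measured. Directional NEBNext libraries were made from miRNeasy total RNA after ribosomal RNA depletion, per the labels' protocols. The authors deposited whole-number read counts per gene, not normalized. Per the submitters' processing notes, cutadapt 1.16, STAR 2.7.9a, featureCounts 1.6.3, DESeq2 1.42.1 and build GRCm39 (mm39) were used. The annotation release, the strand setting and the treatment of multiply mapped reads are not given in the sources used here, so counts of overlapping genes and of genes with pseudogenes are uncertain.

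Hearts were grouped by the labels. Genes with low counts were removed by filterByExpr, leaving 17682, and counts were scaled by TMM. edgeR 4.0.16 (R 4.3.3, limma 3.58.1) fitted a robust quasi-likelihood model to all 6 groups (19 residual degrees of freedom). Within each of 11 comparisons the Benjamini-Hochberg adjustment ran over all tested genes, and genes were called below 0.05. CPM are counts scaled to the TMM-adjusted library size. The fit was tested on simulated data, with changes set in randomly chosen genes for Ang/PE against saline in MCT1KO hearts. It recovered 30.6% of 1.5-fold, 60% of 2-fold and 92% of 3-fold rises, and 68% of falls to 0.5-fold. A gene without a call may therefore still have changed. The 34 genes and the pathway and marker lists were chosen with earlier results of these data known. Genes named in the text are the called ones, the 2 with the smallest p in each comparison, and genes standing for a role; all others were chosen after their values were seen. The total count of 12216704 to 24880683 left Aurkb and Birc5, which had the lowest counts in a single heart, with as few as 2. Alternatives were other scalings, DESeq2 1.42.0, no low-count filter, only the groups compared, a replicate block, mitochondrial genes removed, Xist as a covariate and each heart left out. Promoters came from RefSeq on GRCm38.p6 and gene overlaps from GENCODE M21 (GRCm38), for names and sequence only.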

Additional observations from a re-analysis of the deposited data

Results flagged for a closer look

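In 136 sets of one gene in one group of 4 to 6 hearts, 8 had a highest or lowest heart set apart from the others by Dixon's criterion, where chance gives about 1 in 20, or 6.8. All values here are log2 CPM. On the high side, Ccne1 in MCT1KO Ang/PE replicate 2 was at 0.86, with the next heart at -0.47, and Mcm5 in WT no pump replicate 2 was at 2.37, with the next at 1.82. On the low side, MCT1KO saline replicate 4 stood apart for Foxm1 (0.09, next 1.00) and for Mki67 (2.76, next 3.49). Cdc6 was low in WT no pump replicate 4 (-0.90, next -0.01) and in WT saline replicate 1 (-1.78 from 5 counts, next -0.89). E2f1 was low in WT saline replicate 1 (-0.02, next 0.56), and Cdc20 in MCT1KO Ang/PE replicate 4 (-0.93 from 7 counts, next 0.25).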

How the results depend on the processing

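The 3 calls among the 34 genes kept their sign in all alternatives, but each was lost in some. DESeq2 gave 1 in WT hearts for Ang/PE against saline (Mcm2), 2 for Ang/PE against no pump in MCT1KO (Ccnd2 and Cdk2) and 1 for the genotype difference in saline against no pump (Pcna). With no low-count filter the number was 0 in MCT1KO hearts for Ang/PE against saline, 0 for saline against no pump in WT and 0 for Ang/PE against no pump in MCT1KO. With only the groups compared, 1 gene (Mcm2) was called for the Ang/PE step from saline in WT, 0 for the same in MCT1KO, 2 (Ccne2 and Pcna) for saline against no pump in WT and 0 for Ang/PE against no pump in MCT1KO. It was 0 for saline against no pump in WT and for Ang/PE against no pump in MCT1KO with Xist as a covariate, and 0 for the latter with mitochondrial genes removed. All-gene counts over the alternatives reached 945 for Ang/PE against saline and 2287 for saline against no pump in WT. They reached 403 for Ang/PE against no pump in MCT1KO and 371 for the genotype difference in saline against no pump. The counts of the 34 genes moved beside these and are not results about the 34 alone. The cause of the changes was not tested.

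Leaving out each heart gave 0 to 1 genes for Ang/PE against saline in MCT1KO, 0 to 3 for saline against no pump in WT (3 without no pump replicate 1: Ccne2, Pcna and Rrm1), 0 to 1 for it in MCT1KO (Ccnd2 without saline replicate 3), 0 to 2 for Ang/PE against no pump in MCT1KO and 0 to 1 for the genotype difference in saline against no pump. The other 6 comparisons stayed at 0. Without WT no pump replicate 1, 2234 of all genes were called for saline against no pump in WT and 663 for the genotype difference in that step. Without MCT1KO saline replicate 3, 626 were called for saline against no pump in MCT1KO. The 2 calls for Ang/PE against no pump in MCT1KO came without Ang/PE replicate 3, beside 123 of all genes. Adjusted p by edgeR or DESeq2 ran from 0.003 to 0.23 for Cdk2, 0.00891 to 0.132 for Pcna and 0.00312 to 0.191 for Ccnd2 over the alternatives.

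Replicate numbers did not pair the hearts: over 30 same-numbered pairs the correlation of deviations ran from -0.232 to 0.405, with 4 above 0.1. With a replicate block 0 of the 34 genes were called for saline against no pump in WT (Pcna -0.26, adjusted p = 0.0824 by edgeR). The block also ended the calls of Cdkn1a in MCT1KO (adjusted p = 0.0853) and WT hearts (0.0636) and of Pola1 (0.0531).

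Counts over all genes moved more. Beside 3 genes called for Ang/PE against saline in WT, alternatives gave 0 to 945 and leaving out a heart 1 to 131. For the same step in MCT1KO, beside 788, these were 1 to 1224 and 39 to 1541 (39 without saline replicate 4). For saline against no pump they were 509 to 2287 and 60 to 2234 in WT, beside 1168, and 0 to 209 and 0 to 626 in MCT1KO, beside 1. For Ang/PE against no pump in MCT1KO, beside 89, they were 22 to 403 and 1 to 123. In the comparisons with 0 calls the alternatives reached 35 (Ang/PE against no pump, WT), 87, 141 and 5 (genotype with no pump, saline and Ang/PE) and 13 (genotype difference in the Ang/PE step), and beside 1 for the saline step 371. Leaving out a heart reached 250 for genotype with saline and 663 for the genotype difference in the saline step.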
